A study of Mus musculus with 10 samples.

Results

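The 58 genes described here encode the parts of the Wnt pathway, from the secreted ligands to the transcription factors that β-catenin works with. They were chosen by name, with earlier results of these data known, so that their counts are a description of a chosen list. They were looked up among 22238 protein-coding gene symbols in the GENCODE M1 annotation (NCBIM37), and all 58 were found there. They comprise 23 ligands (19 *Wnt* genes and 4 *Rspo* genes), 15 receptors (10 *Fzd* genes, *Lrp5*, *Lrp6*, *Lgr4*, *Lgr5* and *Lgr6*), 10 secreted antagonists, 8 intracellular effectors and 2 membrane E3 ligases. A gene was counted as having a peak near a TSS (transcription start site) when a peak shared at least 1 base with a window reaching 5 kb upstream and downstream of an annotated TSS of the gene. It was counted as having a peak over the gene when a peak fell in those windows or between the annotated start and end of the gene.

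Wnt ligands bind Frizzled receptors together with Lrp5 or Lrp6, which halts the complex of Axin, Apc and kinases that otherwise marks β-catenin (*Ctnnb1*) for destruction. Stabilised β-catenin then joins DNA-bound Tcf and Lef factors and turns on target genes such as *Axin2*. R-spondins act through Lgr receptors to keep Frizzled at the cell surface, while antagonists such as Sfrp proteins, Wif1 and Dkk1 block the signal outside the cell. The pathway works in haematopoietic stem and progenitor cells as well as in many embryonic tissues. PRC2 is the complex that writes H3K27me3, a histone mark found at silenced developmental genes, and Mtf2 (also called Pcl2) is an accessory subunit that helps PRC2 find its sites, which are often CpG-rich.

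The study compared WT (Pcl2+/+) and Mtf2-null (Pcl2-/-) embryos at e14.5 on a C57Bl/6 strain background, in 2 fractions of fetal liver (FL) cells sorted as CD71+Ter119-/lo pro-erythroblasts and the later CD71+Ter119high erythroblasts. ChIP-seq, which sequences the DNA recovered with an antibody, was made for H3K27me3 in both genotypes and for Mtf2 in WT cells, beside an IgG control for each fraction and genotype, with 500000 cells per sample. The null allele came from gene-targeted ES cells and is constitutive, so the non-erythroid cells of the embryo lacked Mtf2 too, and no Mtf2 ChIP from null cells was analysed here as a control for that antibody. The first line of the design text names H3K4me3, whereas H3K27me3 is named in its later lines and in every label, which were followed here.

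There was 1 library per condition, although the study's methods state replicates of 2, so no value below has a replicate error and no test between conditions could be made. Each of the 6 ChIP libraries gave 1 peak list. The ChIP libraries held between 15669899 and 67169672 unique tags and their lists between 1407 and 28918 peaks, and the Mtf2-null H3K27me3 library was the deeper one in both fractions. Fold enrichment is the ratio of ChIP tags to the local IgG background, and the score rises with the negative logarithm of the peak's p against that background, being 50 at the cutoff of 1e-05. The FDR is a percent estimated by exchanging ChIP and IgG, and it was 100% for every peak of the Mtf2-null CD71+Ter119-/lo list. In the Mtf2 libraries 34.6% and 39.7% of tags were unique, against 78.4% to 85.4% in the H3K27me3 libraries. A peak that was not called is not a measured absence of the mark. The lists also differed in the sequence under their peaks, as the 25-base words at the summit occurred once in the genome (median over the words) for 86.5% of the WT CD71+Ter119high H3K27me3 peaks, but for 9.34% of the Mtf2-null peaks of that fraction and for 0.885% and 2.13% of the Mtf2 peaks. In CD71+Ter119-/lo cells this held for 17.0% of the WT and 65.5% of the Mtf2-null H3K27me3 peaks. The sorted cells could not be checked by expression. Of 11 erythroid genes, *Ank1* alone had a WT H3K27me3 peak near a TSS, in both fractions, and of 8 genes of other cell types *Pax5* alone had one, in CD71+Ter119high cells. Of all genes 3.30% had such a peak in CD71+Ter119-/lo cells and 11.5% in CD71+Ter119high cells. Counts this small therefore do not tell erythroid genes from those of other cells.

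H3K27me3 lay near the TSS of 30 of the 58 Wnt pathway genes (51.7%) in WT CD71+Ter119high erythroblasts, against 11.5% of all protein-coding genes. In WT CD71+Ter119-/lo pro-erythroblasts only *Wnt10b*, *Fzd2* and *Tcf7l1* had a peak there (5.17%, against 3.30% of all genes). In Mtf2-null cells 0 of the 58 genes had an H3K27me3 peak near a TSS in either fraction, where 1.28% of all genes had one in CD71+Ter119-/lo cells and 1.64% in CD71+Ter119high cells. Mtf2 peaks near a TSS were likewise at 0 of 58 genes in both fractions, against 8.46% and 1.51% of all genes. The grid of all 58 genes and 6 lists shows that the WT CD71+Ter119high H3K27me3 list accounts for most of the called peaks.

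**Figure D1:**
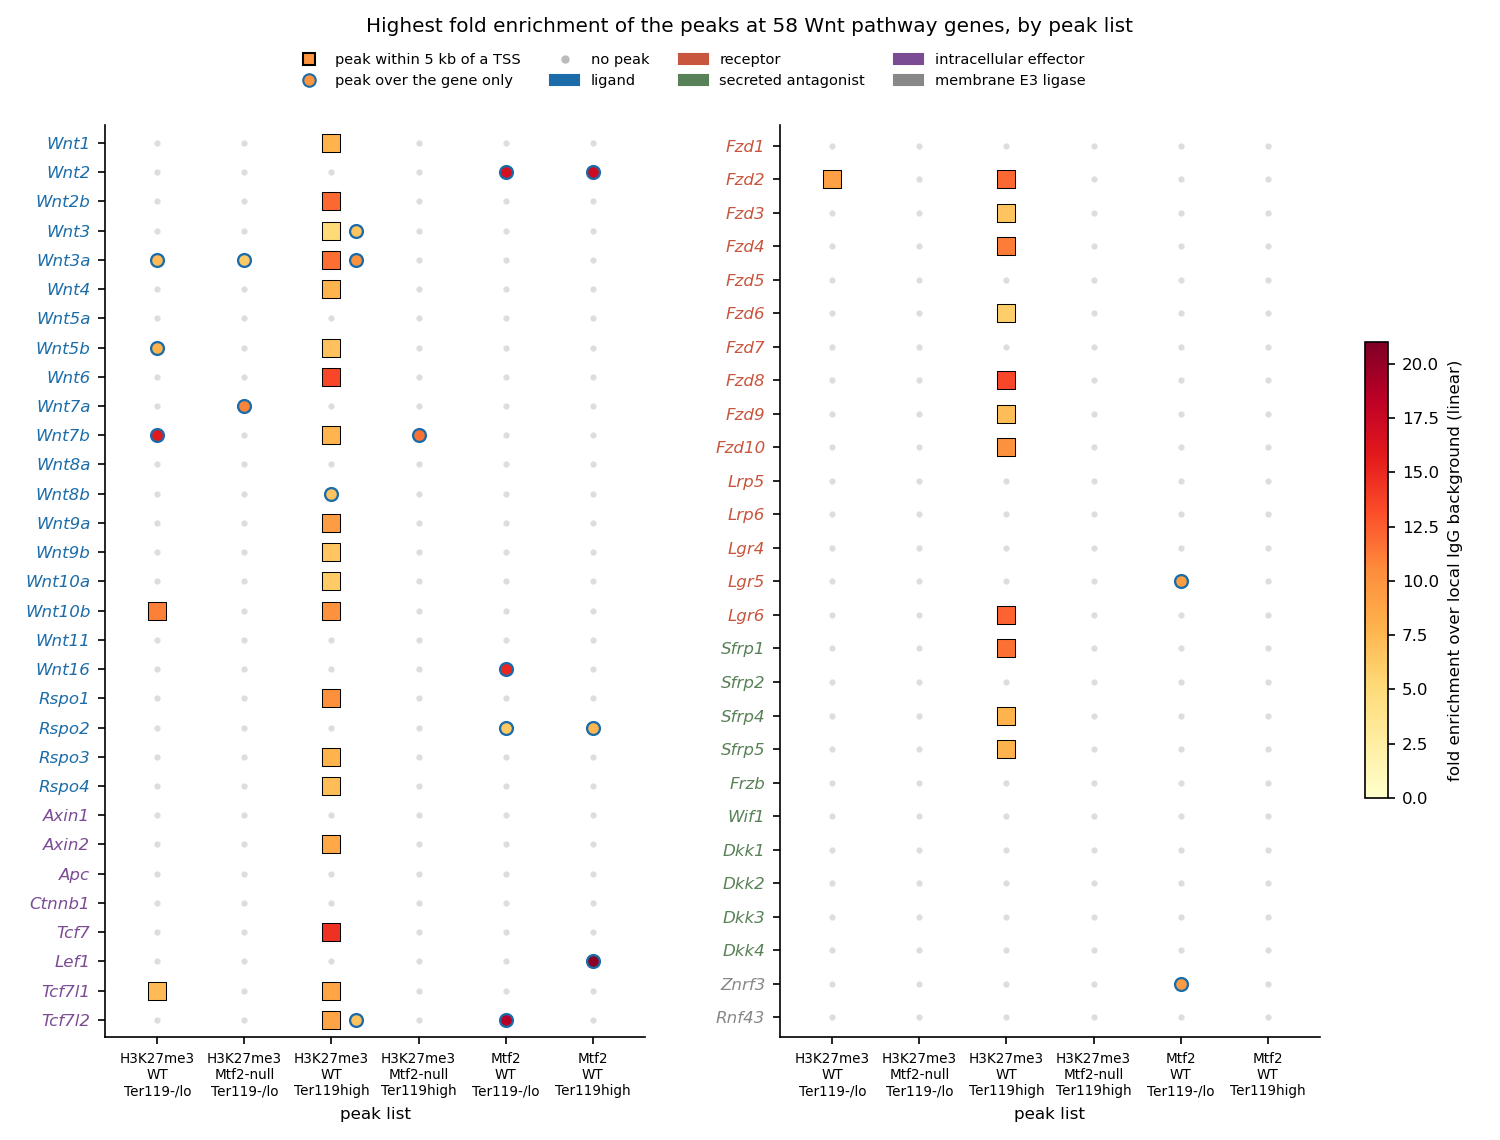
Highest fold enrichment (colour, linear scale) of the peaks at each of the 58 genes (vertical) in the 6 peak lists (horizontal), 1 library each. Squares are peaks within 5 kb of a TSS, circles are peaks elsewhere over the gene, grey dots mark no peak, and gene names are coloured by class. The WT CD71+Ter119high column holds squares at 30 genes, and the Mtf2-null and Mtf2 columns hold none.

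The promoters of *Tcf7*, *Wnt6* and *Lgr6* are printed because these genes, together with *Fzd8*, had the highest fold enrichments in WT CD71+Ter119high cells, and that of *Ctnnb1* because it encodes β-catenin and had no peak. Each run covers 250 bases before to 50 bases from the TSS of the first-named transcript, is read from NCBIM37 on the strand of the gene, and has its CpG dinucleotides in capitals. The *Tcf7* promoter (chr11:52096024-52096323, minus strand) held 17 CpG in 300 bases, that of *Wnt6* (chr1:74818216-74818515, plus strand) 31, that of *Lgr6* (chr1:137001804-137002103, minus strand) 24 and that of *Ctnnb1* (chr9:120842268-120842567, plus strand) 46. The median was 25 over the 58 genes and 12.0 over all 22238 genes, so the *Ctnnb1* promoter, which had no peak, was the richest in CpG of those shown.
Tcf7: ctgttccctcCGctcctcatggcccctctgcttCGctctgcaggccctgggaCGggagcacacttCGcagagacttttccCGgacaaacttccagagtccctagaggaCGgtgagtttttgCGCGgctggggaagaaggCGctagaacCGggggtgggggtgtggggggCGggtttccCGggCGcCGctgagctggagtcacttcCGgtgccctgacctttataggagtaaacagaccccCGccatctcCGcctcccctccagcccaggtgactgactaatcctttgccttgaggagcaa
Wnt6: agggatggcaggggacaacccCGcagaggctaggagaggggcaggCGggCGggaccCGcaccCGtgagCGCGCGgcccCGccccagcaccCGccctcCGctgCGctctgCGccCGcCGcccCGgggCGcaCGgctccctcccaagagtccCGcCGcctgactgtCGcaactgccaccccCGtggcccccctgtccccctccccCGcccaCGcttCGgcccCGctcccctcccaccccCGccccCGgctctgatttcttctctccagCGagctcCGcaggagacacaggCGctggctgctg
Lgr6: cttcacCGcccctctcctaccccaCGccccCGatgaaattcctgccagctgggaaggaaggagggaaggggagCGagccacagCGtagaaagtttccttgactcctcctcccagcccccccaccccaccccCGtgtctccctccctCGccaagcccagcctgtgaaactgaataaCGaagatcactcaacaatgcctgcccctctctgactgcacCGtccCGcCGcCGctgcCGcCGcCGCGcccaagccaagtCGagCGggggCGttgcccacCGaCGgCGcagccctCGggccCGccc
Ctnnb1: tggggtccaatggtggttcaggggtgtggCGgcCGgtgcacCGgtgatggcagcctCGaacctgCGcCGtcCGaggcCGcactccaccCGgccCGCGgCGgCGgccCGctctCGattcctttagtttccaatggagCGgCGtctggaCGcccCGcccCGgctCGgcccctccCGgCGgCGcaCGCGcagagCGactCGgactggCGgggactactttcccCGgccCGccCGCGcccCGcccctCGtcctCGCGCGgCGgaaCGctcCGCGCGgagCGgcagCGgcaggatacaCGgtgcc

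By class, the WT CD71+Ter119high mark was called near 15 of 23 ligands (65.2%), 8 of 15 receptors (53.3%), 4 of 8 intracellular effectors (50%), 3 of 10 secreted antagonists (30%) and 0 of 2 membrane E3 ligases. Within the classes it was called at 12 of 19 *Wnt* genes (63.2%), 3 of 4 *Rspo* genes (75.0%) and 7 of 10 *Fzd* genes (70.0%), whereas the co-receptors *Lrp5* and *Lrp6* had no peak. The share was above the 11.5% of all genes in every class other than the E3 ligases, which hold only 2 genes. The classes differed in promoter composition as well, as the plot of base composition shows, and the part of composition in the difference between classes was not tested.

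**Figure D2:**
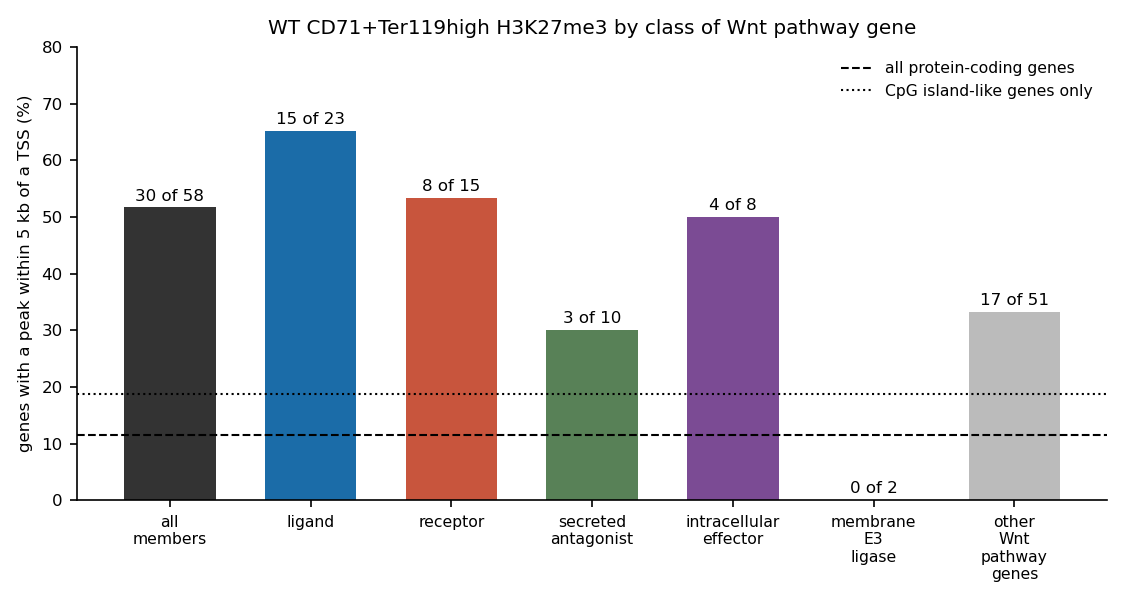
Share of genes with a WT CD71+Ter119high H3K27me3 peak within 5 kb of a TSS (%), by class, with the number of genes above each bar. The dashed line is the share of all protein-coding genes (11.5%) and the dotted line that of genes with a CpG island-like TSS (18.8%), and all bars but that of the 2 membrane E3 ligases are above both lines.

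The peaks sat on the promoters. The 30 genes had 41 peaks within 5 kb of a TSS, of which 28 covered a TSS and 33 had their summit within 1 kb of one. The summit lay downstream of the nearest TSS in 28 peaks and upstream in 13, at a median distance of 0.263 kb. For 40 of the 41 peaks the nearest TSS of any gene belonged to the Wnt pathway gene itself. The exception was the peak of *Sfrp4*, whose summit was 2.37 kb upstream of *Sfrp4* and 0.905 kb from a TSS of *Epdr1*. The peaks of *Fzd3* and *Fzd4* were also within 5 kb of a TSS of *Fbxo16* and of *Tmem135*, respectively, but the summits were nearer to the Frizzled genes.

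**Figure D3:**
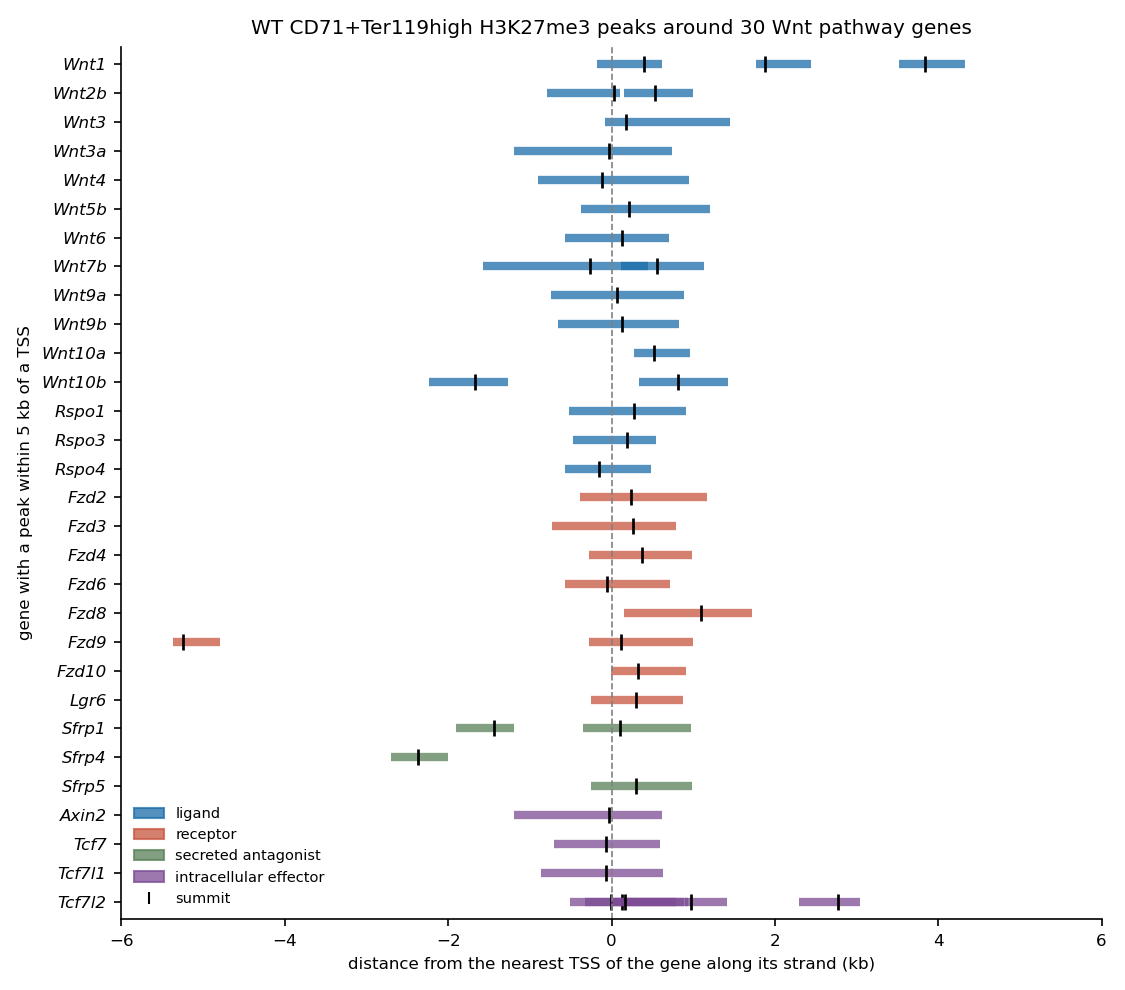
Extent (bars) and summit (ticks) of the 41 WT CD71+Ter119high H3K27me3 peaks within 5 kb of a TSS at 30 genes, as the distance in kb from the nearest TSS along the gene's strand. Bars that overlap in a row belong to different TSS of the gene, as in Tcf7l2 and Wnt7b, and most bars cross the dashed line at the TSS.

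These peaks were of ordinary strength within their list. Their fold enrichment ran from 5.13 to 14.6 with a median of 7.86, and the median of all 2881 peaks near a TSS of any gene was 8.56. Their scores ran from 51.5 to 217 with a median of 83.5, beside 84.2 for all such peaks. A score of at least 100 was reached by 15 of the 41 (36.6%), against 40.7% of all peaks near a TSS, and the same number had an FDR of at most 5%. The highest fold enrichment per gene had a median of 10.6 over the 8 receptors, 8.87 over the 4 effectors, 7.86 over the 3 antagonists and 7.81 over the 15 ligands, with ranges that overlapped between all 4 classes.

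Among the ligands of the canonical pathway, *Wnt3a* had the highest score of all the Wnt pathway genes, at chr11:59103512-59105449 over its TSS (90 tags, fold 11.8, score 217). Scaled to the unique tags of the library this was 2.99 RPM, with an exact Poisson 95% interval of 2.41 to 3.68 that covers counting error only. *Wnt1*, the founding member of the family, had 3 peaks along its short gene, the highest-scoring at chr15:98625647-98626446 downstream of the gene (27 tags, fold 7.86, score 66.0). *Wnt10b*, which lies beside *Wnt1*, had 2, the stronger at chr15:98606266-98607357 (36 tags, fold 10.1, score 81.2). *Wnt3* carried a peak over its TSS at chr11:103635381-103636913 with the lowest of the highest fold enrichments (53 tags, fold 5.13, score 75.7), and its neighbour *Wnt9b* one at chr11:103610314-103611785 (60 tags, fold 6.6, score 90.1). *Wnt9a*, next to *Wnt3a*, had a peak at chr11:59119691-59121316 (75 tags, fold 9.41, score 169).

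Further ligand genes with the mark were *Wnt6*, at chr1:74817898-74819167 (51 tags, fold 13.5, score 141), and the adjacent *Wnt10a*, with a weaker peak at chr1:74838368-74839055 (26 tags, fold 6.18, score 54.0). The mark at *Wnt4*, which acts in kidney and gonad development, was at chr4:136832508-136834358 (82 tags, fold 7.78, score 176). *Wnt2b* had 2 peaks, the stronger at chr3:104764524-104765416 (42 tags, fold 12.0, score 98.1). *Wnt7b* had 2 as well, the higher-scoring at chr15:85407365-85408385 (34 tags, fold 6.74, score 78.4). *Wnt5b*, usually placed among the non-canonical ligands, had a peak at chr6:119493128-119494714 (65 tags, fold 6.85, score 125). All 4 pairs of adjacent *Wnt* genes (*Wnt1* with *Wnt10b*, *Wnt3* with *Wnt9b*, *Wnt3a* with *Wnt9a*, and *Wnt6* with *Wnt10a*, 6.20 to 24.3 kb apart) thus had the mark at both genes, and 0 of these pairs shared a peak.

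The R-spondin genes *Rspo1* (chr4:124663153-124664585, 64 tags, fold 10.3, score 135), *Rspo3* (chr10:29255130-29256144, 35 tags, fold 7.81, score 83.5) and *Rspo4* (chr2:151668098-151669141, 31 tags, fold 7.19, score 54.0) each had 1 peak over a TSS. *Rspo2* had none within 823 kb. Ligands with no peak near a TSS were *Wnt2*, *Wnt5a*, *Wnt7a*, *Wnt8a*, *Wnt8b*, *Wnt11*, *Wnt16* and *Rspo2*. Of these *Wnt8b* had a peak in an exon 19.8 kb downstream of its TSS (chr19:44587511-44588167, 21 tags, fold 6.74, score 50.5), and for the others the nearest peak was 177 to 823 kb from a TSS. These 8 include *Wnt5a* and *Wnt11*, the best known non-canonical ligands, whose nearest peaks were 457 and 410 kb away.

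Among the Frizzled receptors, *Fzd2* had the highest score (chr11:102465357-102466909, 70 tags, fold 12.0, score 187), followed by *Fzd8* (64 tags, fold 13.5, score 171) and *Fzd3* (chr14:65880442-65881956, 94 tags, fold 6.68, score 150). *Fzd4*, also a receptor for Norrin, had a peak at chr7:96552597-96553863 (44 tags, fold 11.2, score 103). *Fzd6* had its peak over the TSS at chr15:38837304-38838594 (74 tags, fold 6.07, score 87.5) and *Fzd10* at chr5:129106710-129107628 (27 tags, fold 10.1, score 54.7). *Fzd9* had 2 peaks, of which the higher-scoring lay 5.24 kb upstream, at the edge of the window (chr5:135731894-135732469, 26 tags, fold 7.19, score 83.5), and the other covered the TSS. *Lgr6* was the only R-spondin receptor with a peak (chr1:137000983-137002110, 37 tags, fold 12.3, score 82.5). *Fzd1*, *Fzd5*, *Fzd7*, *Lgr4*, *Lgr5*, *Lrp5* and *Lrp6* had none, with the nearest peak between 50 and 621 kb from a TSS, and 413 kb from that of *Lrp5*.

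Of the secreted antagonists, *Sfrp1* (chr8:24521621-24522942, 69 tags, fold 11.7, score 145) and *Sfrp5* (chr19:42275754-42276989, 47 tags, fold 7.86, score 123) had a peak over the TSS, and *Sfrp4* the distal peak near *Epdr1* (chr13:19712276-19712972, 22 tags, fold 7.86, score 51.5). *Sfrp2*, *Frzb*, *Wif1* and the 4 *Dkk* genes had none. Among these 10 genes the mark was therefore called at 3 of the Sfrp group, and the nearest peak to the other 7 was 76.0 to 1605 kb away.

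In the intracellular effectors, the peaks were at 3 of the 4 genes for Tcf and Lef factors and at *Axin2*. *Tcf7*, which encodes TCF-1, had the highest fold enrichment of all the Wnt pathway genes (chr11:52095925-52097217, 55 tags, fold 14.6, score 161), and its peak covered 3 of its 4 TSS. *Tcf7l1*, whose product mostly represses, had a peak at chr6:72738314-72739817 (63 tags, fold 8.80, score 98.6). *Tcf7l2* had 5 peaks near its 17 TSS, the strongest over the upstream promoter region at chr19:55816634-55817890 (47 tags, fold 7.90, score 102). *Axin2*, a negative regulator and a target of the canonical pathway, had a peak covering 4 of its 7 TSS (chr11:108781454-108783265, 77 tags, fold 8.59, score 112). *Lef1*, *Axin1*, *Apc* and *Ctnnb1* had no peak, the nearest being 692, 26.0, 214 and 171 kb from a TSS. *Znrf3* and *Rnf43*, the ubiquitin ligases that remove Frizzled from the cell surface, had none within 120 and 29.2 kb.

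Genes with and without the mark differed in base composition, with overlap. Over 1 kb around the TSS, taken as the median over the TSS of a gene, the GC content had a median of 63.5% in the 30 genes with a WT CD71+Ter119high peak (52.9% to 79.8%) and of 55.8% in the 28 without (41.8% to 75.9%). The ratio of observed to expected CpG had medians of 0.748 and 0.564. The median over all annotated TSS can differ from the value at the printed promoter. *Ctnnb1*, without a peak and with 13 TSS, had 49.6% and 0.343, but 75.3% and 1.084 in its printed promoter. *Lgr6*, with a peak, had 52.9% and 0.204, but 67.7% and 0.763. The effect of this on the difference between the groups was not tested. A gene was called CpG island-like when any of its TSS had a GC content of at least 50% and a ratio of at least 0.6, which held for 46 of the 58 genes (79.3%) and for 49.1% of all genes. Of the 46 island-like Wnt pathway genes 27 had a peak (58.7%), against 18.8% of all island-like genes, and of the 12 others 3 had one (25%, *Wnt10a*, *Sfrp4* and *Rspo4*), against 4.57% of all other genes. By this definition the share with a peak was above that of all genes of the kind, though the second kind holds only 12 of the 58 genes. With composition taken over 300 bases, 49 of the 58 genes were island-like. They included 29 of the 30 genes with a peak and 20 of the 28 without. The part of composition in these shares was not tested. The 19 island-like genes without a peak included *Ctnnb1*, *Axin1*, *Apc*, *Lef1*, *Lrp5* and *Lrp6*. By class, 14 of 15 receptors and 8 of 8 effectors were island-like, but 18 of 23 ligands and 5 of 10 antagonists.

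**Figure D4:**
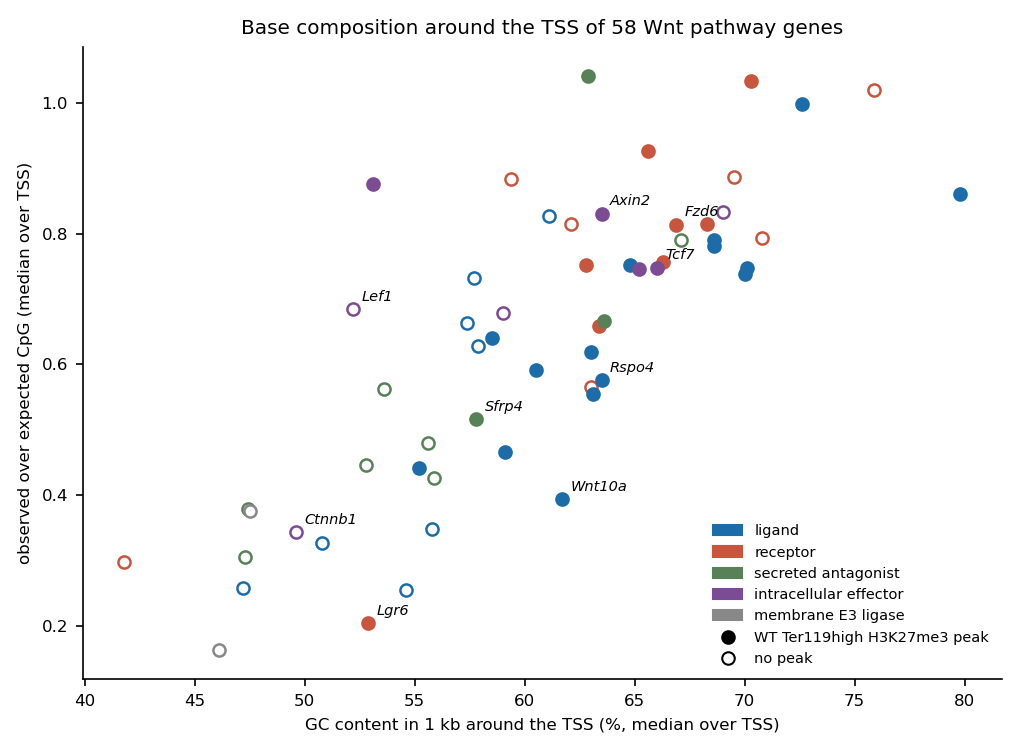
GC content (%) against the ratio of observed to expected CpG in 1 kb around the TSS (median over the TSS of a gene) for the 58 genes, coloured by class, with filled points for genes with a WT CD71+Ter119high H3K27me3 peak near a TSS. Filled points lie mostly at GC contents above 55%, with Lgr6 and Tcf7l2 below, and open points span the whole range from 41.8% to 75.9%.

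Comparing genotypes, all 30 genes with a WT peak near a TSS in CD71+Ter119high cells had no Mtf2-null peak there, and the same held for the 3 genes in CD71+Ter119-/lo cells. This pattern was called at 11.4% and 3.12% of all genes. It was also the rule for any gene with a WT peak, of which 98.8% had no Mtf2-null peak in CD71+Ter119high cells and 94.7% in CD71+Ter119-/lo cells, and the counts for the Wnt pathway genes are to be read against those shares. The nearest Mtf2-null peak to a TSS of the 58 genes was 27.4 kb away in CD71+Ter119high cells, at *Wnt2b*, and 7.62 kb away in CD71+Ter119-/lo cells, at *Axin2*. The median distance was 327 and 485 kb, beside 226 and 497 kb for all genes.

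The Mtf2-null CD71+Ter119high library held 2.23 times the unique tags of the WT library. At the WT density of tags, scaled to this depth, the 41 peaks would have held 46.9 to 210 tags in the Mtf2-null library (median 105). The peaks called there held at least 35 tags, with a median of 87.0, so 41 of 41 would have exceeded the fewest and 23 of 41 the median. The cutoff also depends on the IgG background at each site, which the lists do not give outside their peaks. The Mtf2-null list differed in kind as well, with 84.4% of its peaks at words of a median of 10 or more genome copies, against 9.64% of the WT list. All 41 WT peaks near a TSS of the 58 genes had single-copy summits, as did 95.9% of WT peaks near a TSS of any gene. The part of these differences between the lists in the loss of peaks was not tested.

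Between stages, the 3 genes with a WT peak near a TSS in CD71+Ter119-/lo cells (*Wnt10b*, *Fzd2* and *Tcf7l1*) also had one in CD71+Ter119high cells, where 27 further genes had one. Of all genes, 373 had a peak in both lists, out of 733 in the earlier list (50.9%) and 2567 in the later. These 3 peaks were weak, with 16 to 20 tags, fold enrichments of 7.31 to 11.0, scores of 50.5 to 66.4 and FDR of 8.93% to 14.3%, and 0 of them covered a TSS. That of *Wnt10b* was in an exon 1.90 kb downstream (chr15:98602891-98603483), and that of *Tcf7l1* in an intron 5 kb downstream (chr6:72733052-72733719). Only that of *Fzd2* (chr11:102466822-102467581, 20 tags, fold 9.14, score 66.4) shared bases with the later peak. Scaled to depth and peak length, the earlier *Fzd2* peak held 1.39 RPM per kb and the later one 1.5 RPM per kb. The earlier library was shallower, and at the CD71+Ter119high density 26 of the 41 peaks would have held at least the median tags of the CD71+Ter119-/lo list (22.0) and 36 at least its fewest (16). The 2 WT lists also differed in kind, as 75.9% of CD71+Ter119-/lo peaks had words of a median of 10 or more copies, against 9.64%. Single-copy summits made up 17.0% of the earlier list and 86.5% of the later. Near a TSS of any gene they made up 64.9% and 95.9%, and all 3 earlier peaks near a TSS of these genes had them. The part of depth and of sequence in the difference between the fractions was not tested beyond these counts.

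The 88 bases common to both *Fzd2* peaks (chr11:102466822-102466909, plus strand, NCBIM37) are printed because they are the only sequence near a TSS of these genes that was called in both WT fractions. They lie in the single exon of the gene and hold 5 CpG, in capitals.
Fzd2 shared: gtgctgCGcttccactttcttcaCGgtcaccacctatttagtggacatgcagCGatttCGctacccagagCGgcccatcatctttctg

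Over whole genes, H3K27me3 was called at 31 of the 58 genes in WT CD71+Ter119high cells (53.4%, against 13.2% of all genes) and at 6 in WT CD71+Ter119-/lo cells (10.3%, against 6.48%). In Mtf2-null cells it was called at 1 gene of the CD71+Ter119high fraction (1.72%, against 5.26%) and at 2 of the CD71+Ter119-/lo fraction (3.45%, against 2.91%). *Wnt3a* stood out in WT CD71+Ter119high cells with 4 peaks in its introns besides that at the promoter, 21.3 to 35.1 kb from the TSS and with folds of 7.81 to 10.1. Its introns also held 1 peak in each genotype in CD71+Ter119-/lo cells, and the Mtf2-null peak (chr11:59068086-59068818, 28 tags, fold 6.25, score 59.0, FDR 100%) ended 114 bases from a WT CD71+Ter119high peak. *Wnt7a* had the other Mtf2-null CD71+Ter119-/lo peak, in an intron 12.4 kb from the nearest TSS (chr6:91348331-91349045, 32 tags, fold 10.9, score 83.3, FDR 100%), and the words at its summit had a median of 3629 genome copies. *Wnt5b* had an intronic peak in WT CD71+Ter119-/lo cells alone (chr6:119450701-119451252, 17 tags, fold 7.89, score 60.1), whose words had a median of 1736 copies.

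*Wnt7b* had the only Mtf2-null peak of CD71+Ter119high cells, and the same intronic site was called in the WT CD71+Ter119-/lo list. The Mtf2-null peak (41 tags, fold 11.6, score 51.7, FDR 0.250%) held all 459 bases of the WT CD71+Ter119-/lo peak (16 tags, fold 15.8, score 59.9), with summits 9 bases apart. The words at both summits had a median of 1 copy, but the commonest of them had 1727 copies in the genome. Both summit sequences held an unbroken run of 61 bases in which the unit CTAACC is repeated. The WT CD71+Ter119high list has no peak at the site.

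Mtf2 itself was called over 6 of the 58 genes in CD71+Ter119-/lo cells (10.3%, against 18.8% of all genes) and over 3 in CD71+Ter119high cells (5.17%, against 5.16%), in each case away from the TSS. In CD71+Ter119-/lo cells these were *Wnt2* (chr6:17949541-17950585, 86 tags, fold 16.8, score 70.8), *Wnt16* (22 tags, fold 15.1, score 54.7), *Rspo2* (chr15:42972706-42974512, 61 tags, fold 6.37, score 91.8), *Lgr5* with 2 peaks (the higher-scoring at chr10:114972840-114976612, 164 tags, fold 5.83, score 91.5), *Tcf7l2* (chr19:55879791-55880973, 43 tags, fold 18.7, score 97.1) and *Znrf3*. The *Znrf3* peak was the strongest and longest, with 4.50 kb, 198 tags, fold 9.47 and score 290 (chr11:5261060-5265562). In CD71+Ter119high cells they were *Wnt2* (chr6:17968492-17969039, 15 tags, fold 17.3, score 51.9), *Rspo2* (chr15:42974143-42975020, 25 tags, fold 7.58, score 68.5) and *Lef1* (chr3:130902324-130903024, 21 tags, fold 20.4, score 93.3). *Wnt2* and *Rspo2* were thus called at both stages, and the 2 *Rspo2* peaks shared 370 bases while those of *Wnt2* did not overlap. Of all genes called in CD71+Ter119high cells, 905 of 1148 (78.8%) were also called in CD71+Ter119-/lo cells, which is 21.6% of the 4187 called there.

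The genes with Mtf2 and those with H3K27me3 were then compared. Of the 6 genes with Mtf2 in CD71+Ter119-/lo cells 0 had a WT H3K27me3 peak of that fraction over the gene, and of the 3 in CD71+Ter119high cells 0 had one of their fraction. Among all genes with Mtf2 over the gene the share with both was 806 of 4187 (19.3%) and 233 of 1148 (20.3%), so most genes with Mtf2 had no H3K27me3 peak. Counted from the genes with H3K27me3, both were called at 0 of 6 and 0 of 31 Wnt pathway genes, beside 55.9% and 7.94% of all genes with the mark. *Tcf7l2* alone, 1 of the 6, had Mtf2 in the earlier and H3K27me3 in the later fraction, in separate parts of the gene. Both were called over 667 of the 4187 genes with Mtf2 in the earlier fraction (15.9%), which is 22.7% of those with the later mark. The nearest Mtf2 peak to a TSS was 8.43 kb away at *Dkk3* in CD71+Ter119-/lo cells and 5.91 kb at *Fzd8* in CD71+Ter119high cells. The median distances of 66.9 and 223 kb compare with 44.4 and 216 kb for all genes. Since long genes collect more peaks, and the 58 genes had a median length of 31.1 kb against 15.5 kb for all genes, counts were also split at 40 kb, a limit set after seeing the data. Above it Mtf2 was called over 5 of 24 Wnt pathway genes (20.8%, against 42.2% of all such genes) in CD71+Ter119-/lo cells and over 3 of 24 (12.5%, against 14.1%) in CD71+Ter119high cells. At or below it the counts were 1 of 34 (2.94%, against 10.4%) and 0 of 34 (against 1.96%).

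Printed next are the Mtf2 summit nearest to a TSS in CD71+Ter119-/lo cells, at *Dkk3*, and that of the peak over a gene which lay nearest to its TSS in CD71+Ter119high cells, at *Wnt2*. They are shown because of the sequence they fell on, on the plus strand of NCBIM37 with the longest tandem repeat, where there is one, in capitals. The *Wnt2* summit (chr6:17968456-17968656) held 47 bases of the unit TCTG. The *Dkk3* summit (chr7:119311369-119311569) held no such run, yet its words had a median of 51.0 genome copies. At the *Wnt2* summit of CD71+Ter119-/lo cells, not printed, 105 of 201 bases were repeats of CTT. CpG was sparse, with 2 in the *Dkk3* and 1 in the *Wnt2* sequence.
Dkk3 upstream: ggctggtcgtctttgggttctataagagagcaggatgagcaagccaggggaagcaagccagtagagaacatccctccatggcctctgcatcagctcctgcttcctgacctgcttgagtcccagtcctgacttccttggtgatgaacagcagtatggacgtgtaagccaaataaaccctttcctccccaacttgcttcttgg
Wnt2 intron: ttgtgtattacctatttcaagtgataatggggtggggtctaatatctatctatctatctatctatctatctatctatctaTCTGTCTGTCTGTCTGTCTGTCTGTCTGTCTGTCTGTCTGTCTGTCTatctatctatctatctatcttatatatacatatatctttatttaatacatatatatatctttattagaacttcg

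Copy number set the Mtf2 peaks apart from the H3K27me3 peaks at these genes. Of the 7 Mtf2 peaks over the genes in CD71+Ter119-/lo cells 1 had a single-copy summit (that of *Wnt16*, by median), and the words of the other 6 had medians from 11.0 copies at *Wnt2* to 28021 at the second *Lgr5* peak. At *Znrf3* the median was 468. In CD71+Ter119high cells 0 of 3 were single-copy, with medians of 30 at *Wnt2*, 1185 at *Lef1* and 2292 at *Rspo2*. The whole Mtf2 lists were alike in this, with 96.2% and 95.2% of peaks at medians of 10 or more copies. A tag from such a word can be placed at any of its copies, so the gene assigned to these peaks is uncertain. Of the 48 WT CD71+Ter119high H3K27me3 peaks over the 58 genes, 47 were single-copy, the exception being 1 of the *Wnt3a* introns with a median of 3 copies. Near a TSS of any gene the Mtf2 lists held 54 and 26 peaks with single-copy summits, and 0 of them were at the 58 genes. These peaks reached only 0.283% and 0.117% of all genes, so the count of 0 says nothing particular about the 58. Whether these libraries could show Mtf2 at a single-copy promoter was not tested.

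**Figure D5:**
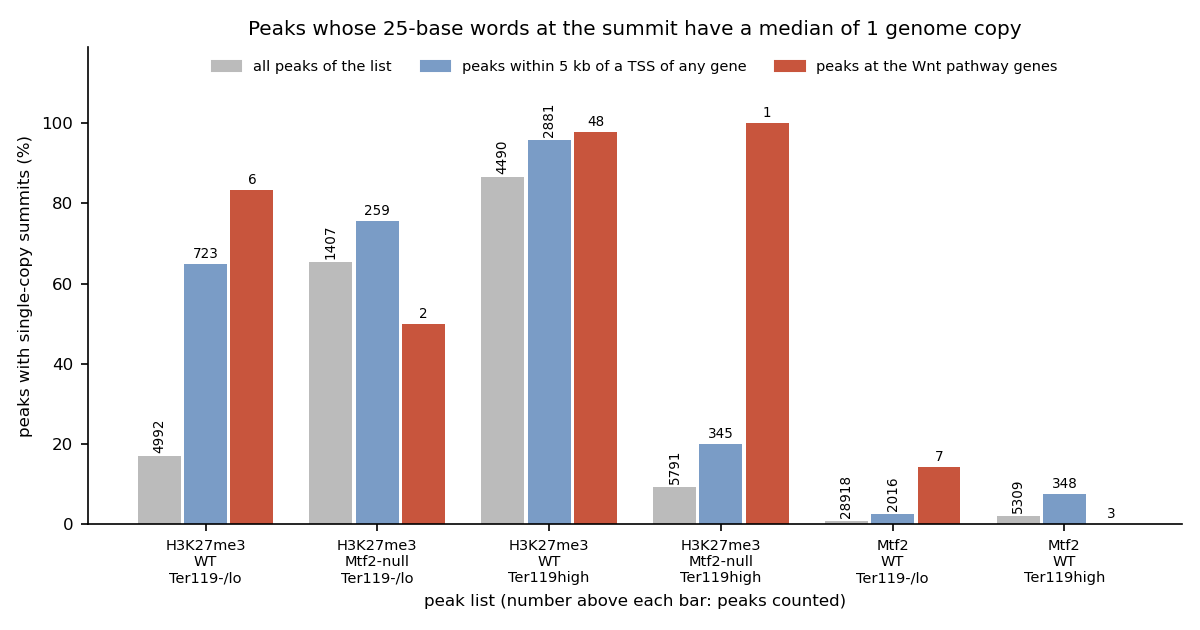
Share of peaks (%) whose 25-base words in the 201 bases at the summit had a median of 1 copy in NCBIM37, for the 6 lists, with the number of peaks counted above each bar (grey, all peaks; blue, peaks within 5 kb of a TSS of any gene; red, peaks at or over the 58 genes). The WT CD71+Ter119high H3K27me3 list stands at 86.5% and the Mtf2 lists at 0.885% and 2.13%.

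Other genes of the pathway, 51 in all, were counted from a list of secretion factors, co-receptors, modulators and planar polarity genes. They had no Mtf2-null H3K27me3 peak near a TSS in either fraction. Such a peak was at 1.28% of all genes in CD71+Ter119-/lo cells and at 1.64% in CD71+Ter119high cells. The WT CD71+Ter119high mark was near a TSS of 17 of them (33.3%, against 11.5% of all genes). Among the secreted modulators it was at *Notum*, a Wnt deacylase, with a score above all of the 58 genes (212 tags, fold 9.76, score 381), and at *Sost*, an antagonist that binds Lrp co-receptors (52 tags, fold 7.70, score 86.9). Among membrane proteins it was at *Kremen1*, *Kremen2*, *Lrp4*, *Ror1*, *Ptk7* and *Apcdd1*, with folds between 4.94 and 12.3. Inside the cell it was at the feedback regulators *Nkd1* (fold 10.3) and *Dact1* (fold 13.2), at *Csnk1e*, *Ctnnbip1*, *Tle2* and *Tle3*, and at the polarity genes *Vangl1* (fold 16.4), *Celsr1* (fold 9.41) and *Prickle1* (fold 8.10). It was not called near a TSS of 34 of the 51 genes. These included *Porcn* and *Wls*, which act in Wnt secretion, and the 3 *Dvl* genes, *Gsk3a*, *Gsk3b* and *Csnk1a1*, which act on the signal inside the cell. They also included relatives of genes with the mark, namely *Ror2*, *Sostdc1*, *Nkd2*, *Dact2*, *Dact3*, *Csnk1d*, *Tle1*, *Tle4*, *Vangl2*, *Celsr2*, *Celsr3* and *Prickle2*. In WT CD71+Ter119-/lo cells *Notum*, *Kremen2* and *Lrp4* had an H3K27me3 peak (5.88%, against 3.30% of all genes). Mtf2 was near a TSS of *Wls* and *Ptk7* in that fraction (3.92%, against 8.46% of all genes).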

How the data were processed

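ChIP-seq peak lists for H3K27me3 (WT and Mtf2-null) and Mtf2 (WT) in 2 FL fractions were analysed, 6 lists from 10 libraries, 4 of which were IgG controls without a list. Per the submitters' processing notes and the file headers, the authors aligned reads to masked mm9 with Bowtie2 2.2.3 and called peaks with MACS 1.3.7 against the IgG library of the fraction and genotype at p 1e-05. Within a fraction, both WT antibodies were set against 1 IgG library. Whether the 2 replicates were pooled, and whether reads mapping to many places were kept, is not given in the sources used here. The deposited tag counts are reads per peak, not scaled for depth. The deposited fold is the authors' ratio over local IgG background, the deposited score is a multiple of −log10 of p, and the deposited FDR is a percent. A deeper library reaches the cutoff at a lower enrichment.

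Peaks were assigned to GENCODE M1 genes on NCBIM37, the assembly of mm9, and 0 peaks ended beyond a chromosome. GC content, CpG and sequences were read from that genome. Each of the 177 words of 25 bases (the tag size in the headers) in the 201 bases at a summit was counted on both strands of chromosomes 1 to 19, X and Y, and a summit was single-copy when the median count was 1. Tandem repeats were unbroken runs of at least 24 bases with units of up to 6. Intervals cover counting error only, since PCR copies are not separate molecules. The overlap step was tested on simulated windows and equalled brute force for 2000 of 2000. The work used Python 3.11.15 with pandas 2.3.3, numpy 2.4.6, matplotlib 3.10.9 and scipy 1.17.1.

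With 1 library per condition no test was made, and counts stand beside the share of all genes. The rule for named genes takes every member, with the highest-scoring peak of each gene that has one, and *Ctnnb1*, *Lrp5*, *Fzd6*, *Axin2*, *Lef1* and *Tcf7* in any case. The members and lists were chosen with earlier results of these data known. Alternatives kept only peaks scoring 100 or more, those with an FDR up to 5%, or the 1407 highest-scoring peaks of each list. Others used the summit in the window, windows of 1 and 10 kb, protein-coding transcripts alone, a gene window from 5 kb upstream to 1 kb past the end, composition over 300 bases, and, chosen after seeing the data, single-copy summits alone.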

Additional observations from a re-analysis of the deposited data

How the results depend on the processing

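The 30 genes with a WT CD71+Ter119high H3K27me3 peak near a TSS, all without a Mtf2-null peak, became 15 at a score of at least 100, 15 at an FDR of at most 5% and 17 with 1407 peaks per list, and the 31 with a peak over the gene became 15, 15 and 17. The share of all genes with a peak near a TSS fell alongside, to 5.55%, 5.50% and 5.85%, and the share over the gene was not counted under these limits. The genes left at a score of 100 comprised 6 ligands, 4 receptors, 2 antagonists and 3 effectors. The 3 genes of WT CD71+Ter119-/lo cells near a TSS, and so those lost there, fell to 0 under these 3 limits and with a 1 kb window, and the 6 over the gene to 0 under the 3 limits. Those settings left 0.121%, 0.00450%, 0.827% and 1.32% of all genes near a TSS, so counts of 0 say nothing particular about these genes. The 2 genes with a Mtf2-null CD71+Ter119-/lo peak over the gene became 0 by score or FDR and 1 (*Wnt3a*) with single-copy summits, and the 1 in Mtf2-null CD71+Ter119high cells became 0 by score or with equal numbers of peaks. The 6 genes with Mtf2 over the gene in CD71+Ter119-/lo cells became 1 (*Znrf3*) by score, 0 with equal numbers and 1 (*Wnt16*) with single-copy summits. The 3 in CD71+Ter119high cells became 0 by score, 0 by FDR, 1 (*Lef1*) with equal numbers and 0 with single-copy summits. The lowest FDR was 6.94% in the Mtf2 CD71+Ter119high list and 100% in the Mtf2-null CD71+Ter119-/lo list. The limit of 5% therefore removed every peak of these lists, and their counts of 0 by FDR were fixed in advance. Single-copy summits left Mtf2 over 0.657% of all genes in CD71+Ter119-/lo cells and 0.243% in CD71+Ter119high cells. A 10 kb window gave 1 gene each for Mtf2-null CD71+Ter119-/lo H3K27me3 (*Axin2*) and for Mtf2 (*Dkk3* and, in CD71+Ter119high cells, *Fzd8*). For the Mtf2 and Mtf2-null lists no share of all genes was counted under settings other than single-copy summits. The changes under those settings are therefore not a result about these genes. Of 103 main counts under an alternative, 68 stayed within 1.5 times. Many of these 68 were counts of 0 that stayed 0. A setting that only removes peaks or narrows the window cannot change a count of 0, so the 68 are not a measure of stability. The limits fall unevenly on lists of different depth. No paired analysis was possible because the labels carry no replicate numbers and each condition has 1 library.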

Other observations

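The core of the DNA site of Tcf and Lef factors, CTTTGA on either strand, was searched in the 300 bases at the promoter of each gene. It was present in 1 of the 30 Wnt pathway genes with a WT CD71+Ter119high H3K27me3 peak (3.33%), in 7 of the 28 without (25%) and in 14.7% of all promoters. The promoters with a peak held a median of 29.0 CpG and those without 20, and the part of base composition in these shares was not tested. A match is not a binding site, and the absence of a match concerns this window alone.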
